A study of Mus musculus with 12 samples.

Results

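The activator protein 1 (AP-1) transcription factors were examined in iMEPM cells, an immortalized line of mouse embryonic palatal mesenchyme, by selecting from the gene-level count table the rows for 9 genes: *Fos*, *Fosb*, *Fosl1*, *Fosl2*, *Jun*, *Junb*, *Jund*, *Atf3*, and *Maff*. All 9 were present among the 51490 genes of the table, and all 9 were among the 15037 genes that passed a filter for low counts (minimum count 10) and were tested. RNA-seq had been performed on 12 samples, with 3 biological replicates in each of 4 groups: cells with a scramble shRNA and cells with an shRNA to the 3' UTR of *Srsf3* (shSrsf3), each left unstimulated (-PDGF-AA) or stimulated for 1 hr with 10 ng/mL PDGF-AA ligand (+PDGF-AA). Both lines derive from a male *Cdkn2a*-/- embryo, so that the controls also lack *Cdkn2a*, and both carry a lentiviral integration and were sorted for a fluorescent reporter. There was 1 line for each shRNA. The effect of the shRNA and differences between the lines of another origin cannot be told apart, and the replicates measure the spread between cultures of a line.

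AP-1 is a dimer of basic leucine zipper proteins. Jun proteins pair with each other or with Fos proteins, and Fos proteins need a Jun partner to bind DNA. The dimers bind elements of the form TGANTCA, best known with C or G in the middle, or the related cyclic AMP response element TGACGTCA. In cells stimulated with serum or growth factors, *Fos*, *Fosb*, *Junb*, *Jun*, and *Atf3* are immediate early genes, transcribed through ERK and JNK signaling without new protein synthesis, whereas *Fosl1* and *Fosl2* are commonly slower and more lasting. *Fos* mRNA is known for a brief pulse soon after stimulation, and its 3' UTR for AU-rich elements that mark an mRNA for rapid decay. Maff is a small Maf protein, a bZIP factor without a transactivation domain.

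The upstream regions of the members differed in elements known from these pathways. Serum response elements are built on a CArG box, an AT-rich core between C and G bases to which serum response factor binds. Within 500 bases upstream of the annotated start of each gene's canonical transcript (GENCODE M39, GRCm39), a CArG box was found in *Fos* and *Fosb*, 2 of the 9 members, against 2.76% of 21770 genes. Both are shown in 30-base windows on the strand of the gene, with the match in capitals, because *Fos* and *Fosb* are the members with this element and had opposite changes upon ligand in shSrsf3 cells:
Fos, chr12:85520345-85520374 (+), 303 bases before the start: cacaggatgtCCATATTAGGacatctgcgt
Fosb, chr7:19044223-19044252 (-), 266 bases before the start: tggccgagctCCTTATATGGctaattgcgt
A full cyclic AMP response element, TGACGTCA, was found in *Jund* and *Maff* (1.96% of genes), which are shown as the members with no call in any comparison of all samples:
Jund, chr8:71151374-71151403 (+), 214 bases before the start: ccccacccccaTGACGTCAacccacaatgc
Maff, chr15:79231680-79231709 (+), 29 bases before the start: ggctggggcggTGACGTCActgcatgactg
The looser pattern TGANTCA, searched with any base in the middle, occurred in 1 member, *Fos* (12.3% of genes). The match is TGAATCA, with A in the middle, and is shown because it resembles the family's own element without the usual C or G:
Fos, chr12:85520191-85520220 (+), 456 bases before the start: cgggtccacatTGAATCAggtgcgaatgtt
Both strands were searched for each of these elements, and none of the 5 windows overlaps another. The *Maff* site lies upstream of the canonical transcript but inside the annotated gene, which begins at 79230821. A match describes these letters in this window and was not tested for binding.

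Some features of the transcripts were common to the family. *Jun*, *Junb*, and *Jund* are transcribed from a single exon, an arrangement found in 6.24% of genes, whereas the 4 *Fos* subfamily genes and *Atf3* have 4 exons each and *Maff* has 3 in the canonical transcript. The AU-rich pentamer ATTTA was present in the 3' UTR of all 9 members, against 67.4% of genes. The longer decay element TTATTTATT was present in *Fos*, *Fosl2*, and *Maff* (8.34% of genes). Per kilobase of 3' UTR, *Fos* had the most pentamers, at 4.91, followed by *Junb* at 4.12, and *Fosb* had the fewest, at 0.466.

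The depth of the libraries ranged from 30958966 to 76123359 counts, and the 3 shSrsf3 +PDGF-AA libraries were among the 4 shallowest. The targeted gene, *Srsf3*, was lower in all 6 shSrsf3 samples (161.0 to 169.6 CPM) than in all 6 scramble samples (198.7 to 231 CPM), where CPM is the count scaled to library size with TMM factors. Its log2 fold change was -0.34 without and -0.43 with ligand (edgeR adjusted p = 7.95e-06 and 9.54e-07). These values are of RNA, and the study reported a larger decrease of the protein in shSrsf3 cells by western blot. The 11 markers of palate mesenchyme summed to between 31192 and 36683 CPM, and *Meox2*, one of them, did not pass the filter for low counts. Markers of epithelium (3.02 to 6.21 CPM) and blood (0.814 to 1.68 CPM) were near 0. Those of endothelium, muscle, and nerve and glia summed to between 19.2 and 34.6 CPM. The lines differed in these lists. Without ligand, the mesenchyme markers summed to between 34933 and 36683 CPM in scramble and between 31273 and 33359 CPM in shSrsf3 cells, with 6 of 10 tested markers called lower and 2 called higher in shSrsf3 cells, among them *Msx1* (log2 fold change -0.93), *Pax9* (-0.76), and *Shox2* (1.76). Of all tested genes, 22.2% were called higher and 23.7% lower in this comparison. The endothelial sum was 30.6 to 33.4 CPM in scramble and 22.3 to 22.96 CPM in shSrsf3 cells, and that of nerve and glia 29.04 to 30.3 and 20.6 to 20.96 CPM. Of 4 tested endothelial markers, however, 2 were called higher and 1, *Tek* (-0.61), lower in shSrsf3 cells. Of 3 tested markers of nerve and glia, 2 were called lower and none higher. The part of these differences in those of the AP-1 genes between the lines was not tested. The study's methods give lower mapping rates for 3 scramble samples (replicates 1 and 2 without ligand and replicate 2 with it) than for the other 9. Results that rest on these libraries are therefore also given from the other 9 samples, in which 1 unstimulated scramble sample is left and its spread is taken from the other groups. That sample, replicate 3, differed over all genes from replicates 1 and 2, which are those of lower mapping rate. The chi-square per degree of freedom between libraries was 25.7 and 33.9 against replicates 1 and 2, and 5.47 between those. Likewise, scramble +PDGF-AA replicate 2, also of lower mapping rate, had 24.2 and 16.9 against replicates 1 and 3 of its group, and 7.14 was found between those. The part of mapping rate in these differences was not tested.

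*Jund* was the most abundant member in unstimulated scramble cells, and *Fos* and *Fosb* were the least. CPM values are relative to the RNA of a whole culture, so that a change in fewer cells and a smaller change in all cells cannot be told apart. Levels were compared between genes as CPM per kilobase, using the median length of each gene's coding transcripts. In scramble -PDGF-AA samples, *Jund*, a Jun protein known for steady expression, stood at 107 ± 7.32 CPM per kilobase (SD, n = 3). *Fosl1*, which encodes Fra-1, followed at 41.3 ± 5.42. *Junb* (35.7 ± 2.35), *Fosl2* (35.6 ± 1.51), *Jun* (35.4 ± 3.19), and *Maff* (34.3 ± 6.26) did not differ beyond their spread, and the SD intervals of *Fosl1* and *Junb* overlapped. *Atf3* was lower, at 10.7 ± 1.39, and *Fos* (5.35 ± 0.349) and *Fosb* (1.62 ± 0.382) were lower again. The place of *Fosl1* depends on the length used. With the longest transcript it stood at 24.6 CPM per kilobase, below *Junb* at 31.9.

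**Figure D1:**
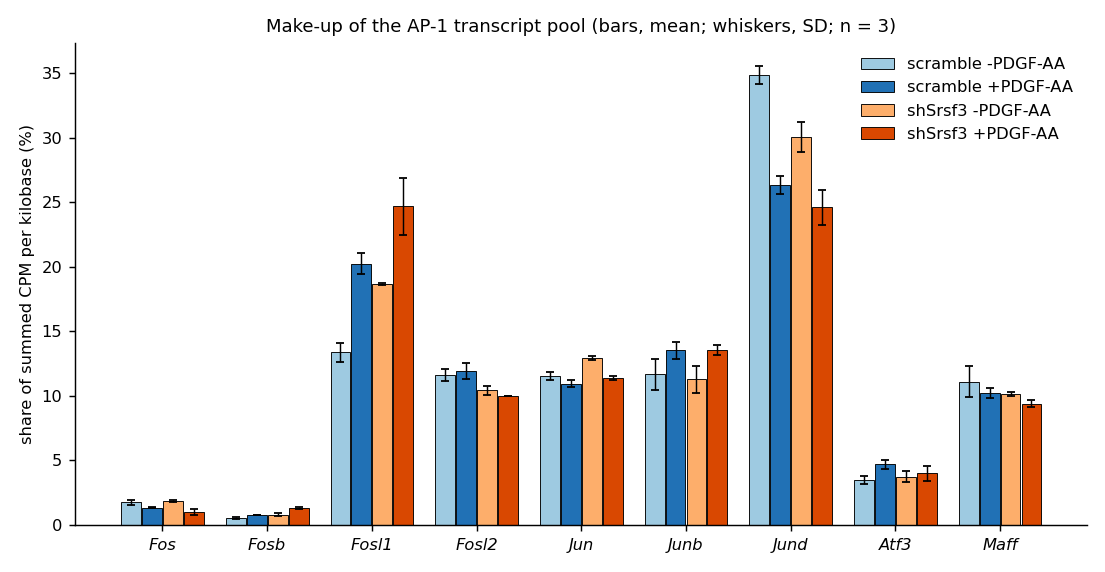
Share of each AP-1 member in the summed CPM per kilobase of all 9 members (y axis, percent; bars are means, whiskers SD, n = 3) in the 4 groups. *Jund* falls from 34.9% in scramble -PDGF-AA to 24.6% in shSrsf3 +PDGF-AA samples as *Fosl1* goes from 13.4% to 24.7%.

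The make-up of the pool of AP-1 transcripts differed between groups. The *Fos* subfamily made up 27.3% ± 0.150 of the summed CPM per kilobase in unstimulated scramble cells, 31.8% ± 0.590 in unstimulated shSrsf3 cells, 34.2% ± 0.173 in stimulated scramble cells, and 37.0% ± 1.92 in stimulated shSrsf3 cells (SD, n = 3). The *Jun* subfamily made up 58.1% ± 1.396, 54.3% ± 0.233, 50.9% ± 0.449, and 49.6% ± 1.14 in the same order. Most of this shift lay in 1 gene on each side, as the plot of pool shares shows. *Fosl1* went from 13.4% in the first of these groups to 24.7% in the last, and *Jund* from 34.9% to 24.6%. *Jund* itself averaged between 173 and 183 CPM in the 4 groups, while the sum over the members was higher in the later groups. With the longest transcripts, the share of *Fosl1* went from 8.68% to 16.8%. No test was applied to these shares.

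Upon stimulation of scramble cells, 6 of the 9 members were higher and none was lower at an adjusted p of 0.05 or less, with edgeR's quasi-likelihood test across all genes. This compares with 2.00% of the 15037 tested genes called higher and 2.04% called lower. The members that rose were *Fosl1*, *Fosb*, *Atf3*, *Junb*, *Fosl2*, and *Jun*, and none reached a 2-fold change in the model of all 12 samples. *Fos*, *Jund*, and *Maff* did not pass the test. The median log2 fold change of the 9 members was 0.39, and that of all genes was -0.01.

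The *Fos* subfamily was not uniform in this comparison. *Fosl1* had 48.8, 49.8, and 38.9 CPM in scramble -PDGF-AA replicates 1 to 3 and 82.8, 97.3, and 85.1 CPM in scramble +PDGF-AA replicates 1 to 3. *Fosb* had 6.34, 7.06, and 4.36 CPM without and 10.4, 11.6, and 10.7 CPM with ligand. The groups did not overlap for either gene, and replicate 3 was the lowest of the unstimulated samples for both. The log2 fold change was 0.95 for *Fosl1* (SE 0.104, edgeR adjusted p = 1.72e-04) and 0.90 for *Fosb* (SE 0.140, edgeR adjusted p = 0.00263). *Fosl2*, which encodes Fra-2, had 257, 252, and 236 CPM without and 323, 323, and 329.9 CPM with ligand, a smaller but tighter difference (0.39, SE 0.0495, edgeR adjusted p = 5.72e-04). *Fos* had 11.95, 10.5, and 11.5 CPM without and 10.99, 11.3, and 10.8 CPM with ligand. These groups overlapped, and the log2 fold change was -0.04 (SE 0.0936, edgeR adjusted p = 0.886). At this 1 time point, *Fos* had no call where its 3 relatives did.

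Among the *Jun* genes, *Junb* differed most. *Junb*, whose product is a weaker activator than Jun, had 54.2, 61.7, and 57.3 CPM without and 80.9, 95.7, and 81.8 CPM with ligand (log2 fold change 0.58, SE 0.0890, edgeR adjusted p = 0.00251). *Jun*, the main transactivating partner of Fos proteins, had 122, 115, and 102 CPM without and 134, 141, and 137 CPM with ligand (0.28, SE 0.0574, edgeR adjusted p = 0.0139). Neither gene's groups overlapped, although the call for *Jun* was lost in 2 of 23 alternative settings, without scramble +PDGF-AA replicate 3 (edgeR adjusted p = 0.0633) and with only the 2 groups compared in the model (0.0699). *Jund* had 188, 182, and 165 CPM without and 170.3, 177, and 170.3 CPM with ligand, and these groups overlapped (-0.05, SE 0.0461, edgeR adjusted p = 0.632). *Atf3*, a stress- and growth factor-induced factor that pairs with Jun proteins, had 21.2, 24.6, and 19.03 CPM without and 35.1, 36.5, and 39.9 CPM with ligand. The groups did not overlap, with a log2 fold change of 0.79 (SE 0.102, edgeR adjusted p = 6.57e-04).

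*Maff* depended on the samples used. It had 76.8, 72.6, and 53.6 CPM without and 73.6, 86.7, and 77.3 CPM with ligand, with overlapping groups and a log2 fold change of 0.23 (SE 0.100, edgeR adjusted p = 0.253). Its lowest sample was scramble -PDGF-AA replicate 3, the only unstimulated scramble sample left when the 3 samples of lower mapping rate were omitted. From those 9 samples, the log2 fold change was 0.49 for *Maff*, and 1.28 for *Fosb* and 1.11 for *Fosl1*, both over 2-fold. Without scramble -PDGF-AA replicate 3, *Fosb* had 0.71 and *Maff* 0.10.

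**Figure D2:**
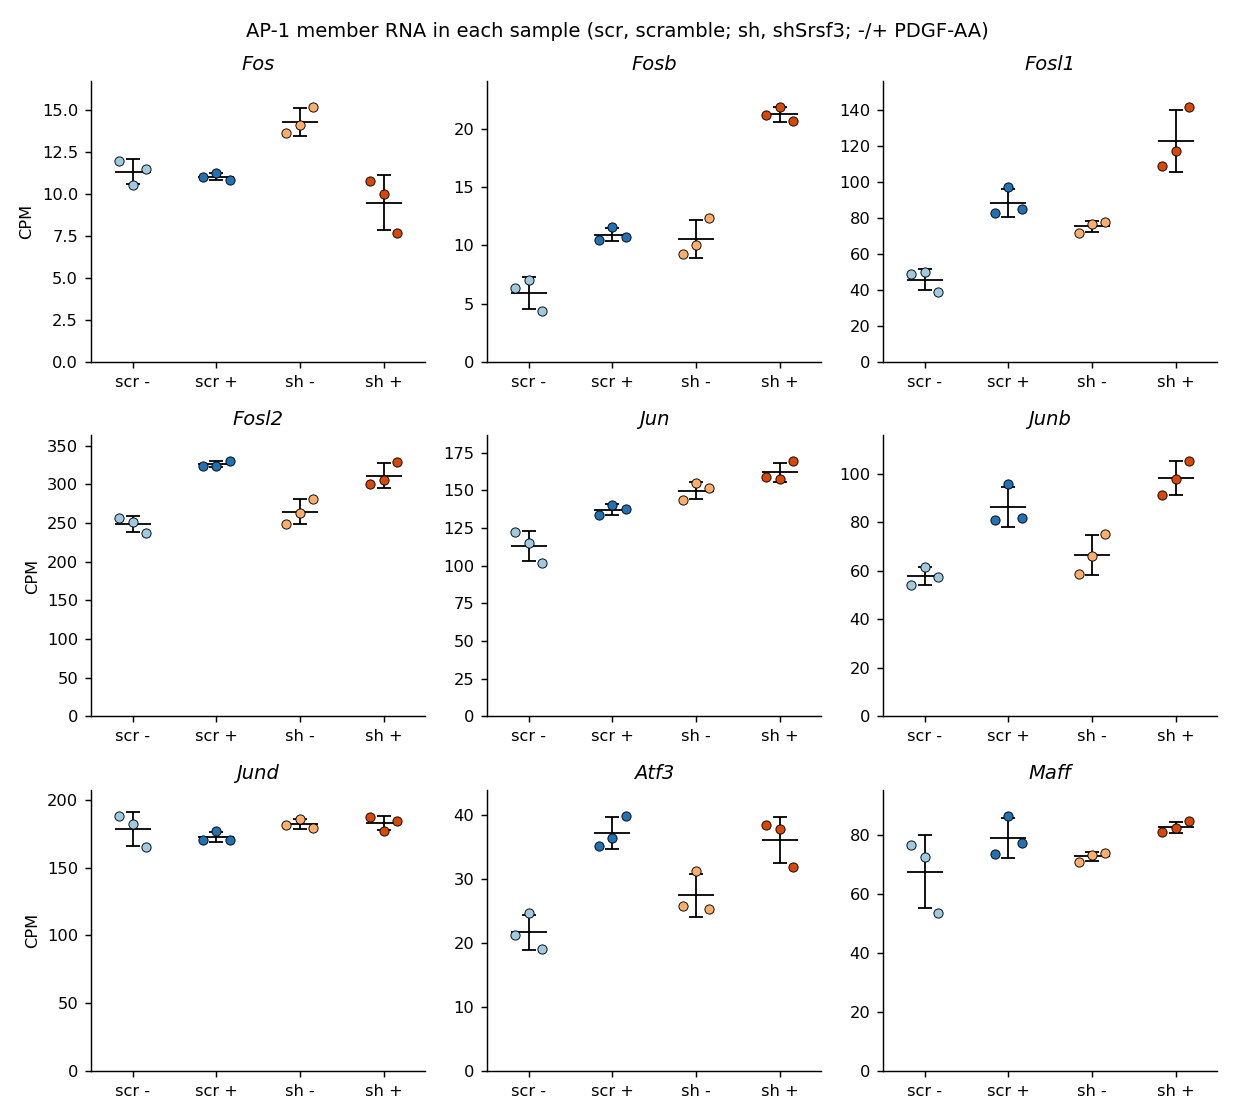
CPM of each AP-1 member (y axis from 0, one panel per gene) in each of the 12 samples; points are samples, horizontal marks are means, and whiskers are SD (n = 3). *Fosb* and *Fosl1* are highest in shSrsf3 cells with ligand, at 21.2 and 123 CPM on average, whereas *Fos* is lowest there, at 9.48 CPM.

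Upon stimulation of shSrsf3 cells, 3 of the 9 members rose and 1 fell, against 0.426% of tested genes called higher and 0.140% called lower. *Fosb*, *Fosl1*, and *Junb*, which were also called higher in scramble cells, were the 3 that rose, and *Fos* fell. The groups did not overlap for 8 of the 9 members, *Jund* being the exception, with 7 higher and 1 lower, beside 8.59% and 9.42% of all tested genes. The median log2 fold change was 0.24 for the members and -0.00 for all genes. The count of 4 was sensitive to the samples, with 1 call, *Fosb*, without shSrsf3 -PDGF-AA replicate 1 and 2 calls without replicate 2 of that group. More members were called from the 9 samples of higher mapping rate. The 3 samples left out there are scramble samples and are not compared here, but the 4 groups share 1 estimate of the spread.

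With all 12 samples in the model, *Fosb* was the only member to reach a 2-fold change, and it did so here. Of all tested genes, 0.0399% were called with at least a 2-fold change upon ligand in shSrsf3 cells. *Fosb* had 9.23, 10.0, and 12.3 CPM without and 21.1, 21.9, and 20.6 CPM with ligand in shSrsf3 cells (log2 fold change 1.03, SE 0.131, edgeR adjusted p = 0.00248). *Fosl1* had 71.7, 76.7, and 77.6 CPM without and 109, 117, and 142 CPM with ligand (0.70, SE 0.103, edgeR adjusted p = 0.00610). *Junb* had 58.7, 65.9, and 75.1 CPM without and 91.4, 97.8, and 105 CPM with ligand (0.56, SE 0.0891, edgeR adjusted p = 0.0102). The calls for *Fosl1* and *Junb* were lost without shSrsf3 -PDGF-AA replicate 1 (edgeR adjusted p = 0.0595 and 0.0673), and that for *Junb* also without shSrsf3 -PDGF-AA replicate 2 (0.0644).

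*Fos* went the other way. It had 13.6, 14.1, and 15.2 CPM in shSrsf3 -PDGF-AA replicates 1 to 3 and 10.8, 9.97, and 7.66 CPM in shSrsf3 +PDGF-AA replicates 1 to 3. Every stimulated sample was below every unstimulated one, and replicate 3 was the lowest of the stimulated samples. *Fos* fell by 0.58 on the log2 scale (SE 0.0968, edgeR adjusted p = 0.0128). These values rest on 566 to 1050 counts per library without and 238 to 404 counts with ligand. The log2 fold change was negative in all 23 alternative settings, between -0.69 and -0.45, but the call was lost when any one of the 3 shSrsf3 -PDGF-AA replicates was left out (edgeR adjusted p between 0.0514 and 0.0644).

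The remaining members had no call in shSrsf3 cells. *Fosl2* had 249, 263, and 281 CPM without and 299.7, 305, and 329 CPM with ligand, and missed the threshold narrowly (log2 fold change 0.24, SE 0.0495, edgeR adjusted p = 0.0551), with a call in 11 of 23 alternative settings. *Atf3* had 25.7, 31.2, and 25.3 CPM without and 38.5, 37.7, and 31.9 CPM with ligand (0.39, SE 0.102, edgeR adjusted p = 0.134). *Jun* had 143, 155, and 151 CPM without and 159, 158, and 169 CPM with ligand (0.11, SE 0.0573, edgeR adjusted p = 0.589). *Fosl2*, *Atf3*, and *Jun* each had groups that did not overlap, with differences smaller than those in scramble cells. *Maff* (71.1 to 74.1 CPM without and 81.0 to 84.8 CPM with ligand) and *Jund* (179 to 186 and 177 to 187 CPM) had log2 fold changes of 0.18 and 0.01 (edgeR adjusted p = 0.620 and 0.991).

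**Figure D3:**
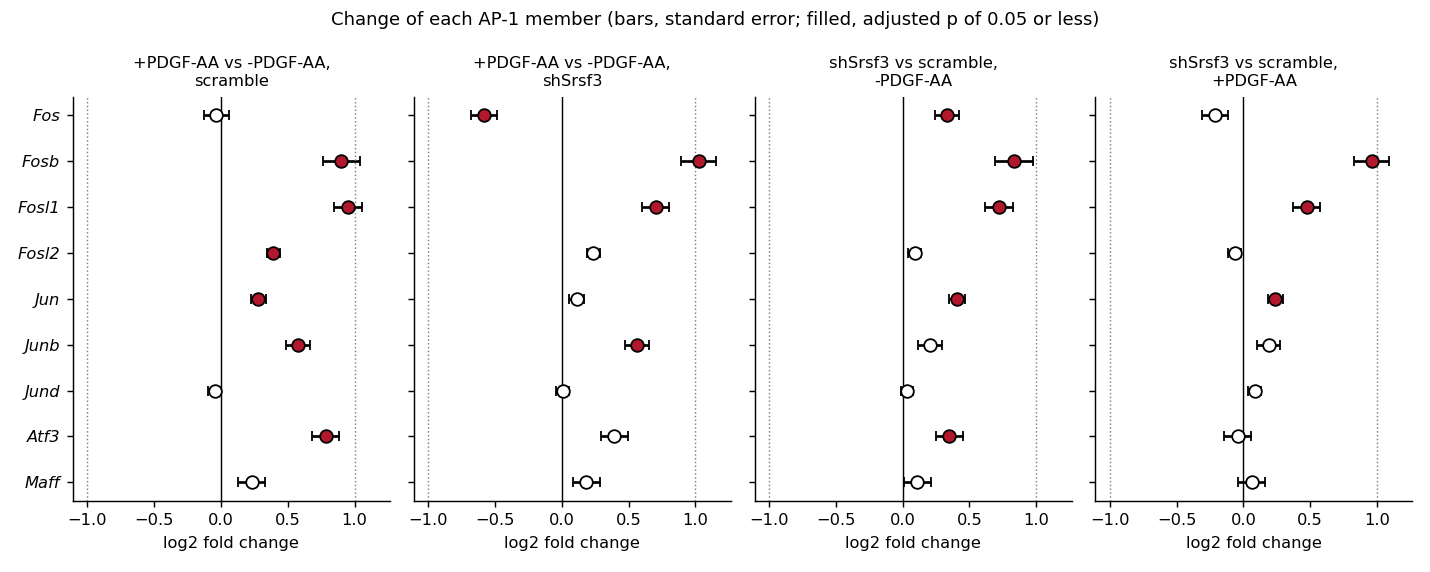
Log2 fold change of each AP-1 member (x axis) in the 4 comparisons; whiskers are standard errors, filled points have an adjusted p of 0.05 or less, and dotted lines mark a 2-fold change. *Fos* lies at -0.04 upon ligand in scramble and at -0.58 in shSrsf3 cells, whereas *Fosb* lies between 0.84 and 1.03 in all 4 panels.

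Whether the response to ligand differed between the lines was tested by the interaction, the log2 fold change in shSrsf3 minus that in scramble cells. None of the 9 members was called by edgeR's test, and 2 genes of 15037 (0.0133%) were. At an unadjusted p under 0.05 there were 3 members and 833 genes (5.54%), and DESeq2 and limma-voom called 0 members. The 3 were *Fos* (-0.55, SE 0.135, unadjusted p of 0.00128, edgeR adjusted p of 0.495), *Atf3* (-0.39, SE 0.143, 0.0165, and 0.847), and *Fosl2* (-0.16, SE 0.0700, 0.0432, and 0.874). *Fos* ranked 39 of 15037 genes by this p. The interaction was negative for 7 of the 9 members, and the positive values, for *Fosb* and *Jund*, were 0.12 (SE 0.192) and 0.05 (SE 0.0652). *Junb* was closest to 0, at -0.01 with an SE of 0.126. The sign of the interaction for *Fosb*, *Junb*, *Jund*, and *Maff* turned in some alternative settings. Without a low-count filter, *Fos* and *Atf3* were called for the interaction (edgeR adjusted p = 2.04e-04 and 1.97e-04), the one setting of 22 in which either was. A difference in response between the lines is therefore not established for any of these genes. The plot of the responses in both lines shows most members near or below the line of equal response.

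**Figure D4:**
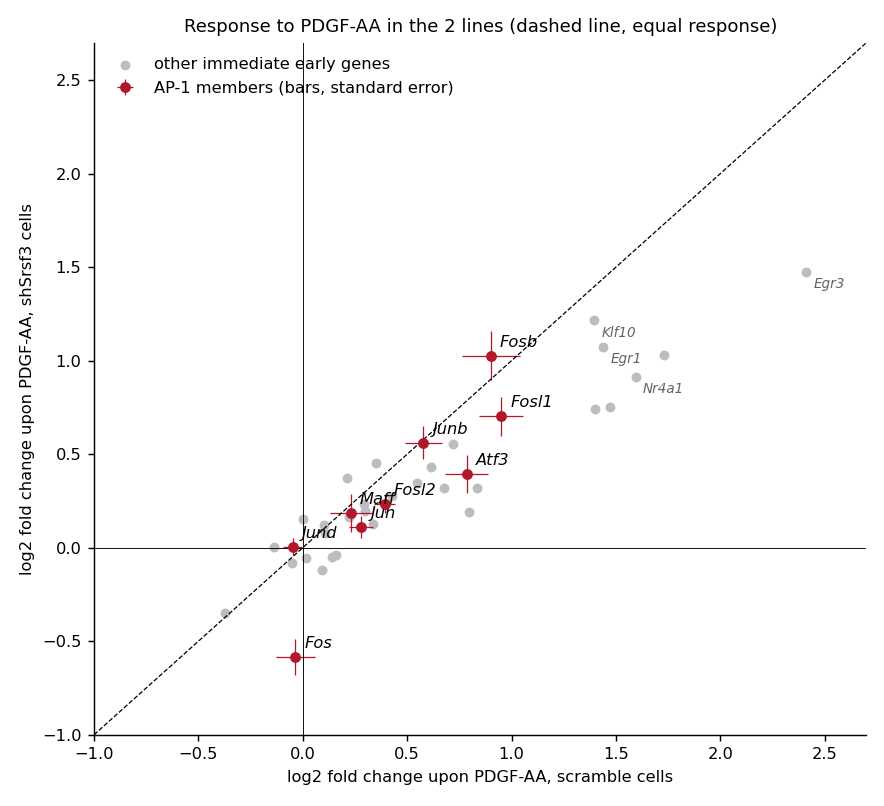
Log2 fold change upon PDGF-AA in scramble (x axis) and shSrsf3 cells (y axis) for the 9 AP-1 members (red, whiskers are standard errors) and 30 other immediate early genes (gray). *Fos* lies alone below 0 on the y axis among the members, at -0.58, and *Egr3* is the farthest point to the right, at 2.41.

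Between the lines without ligand, 5 of the 9 members were higher in shSrsf3 cells and none was lower, beside 22.2% of all tested genes called higher and 23.7% called lower. These were *Fosb*, *Fosl1*, *Jun*, *Atf3*, and *Fos*. The comparison shares its scramble samples with the comparison of ligand in scramble cells, so that a low unstimulated scramble value raises both. It also shares its shSrsf3 samples with the comparison of ligand in shSrsf3 cells. A high unstimulated shSrsf3 value raises the difference between the lines and lowers that change upon ligand. *Fosb* was higher by 0.84 (SE 0.141, edgeR adjusted p = 3.13e-04), from 5.92 ± 1.397 to 10.5 ± 1.60 CPM, and *Fosl1* by 0.72 (SE 0.104, edgeR adjusted p = 8.75e-05), from 45.8 ± 6.02 to 75.4 ± 3.17 CPM (SD, n = 3). The value for *Fosb* was 0.64 without scramble -PDGF-AA replicate 3, where it was called, and 1.24 from the 9 samples of higher mapping rate. The unstimulated shSrsf3 samples of *Fosb*, at 9.23 to 12.3 CPM, covered the range of the stimulated scramble samples, at 10.4 to 11.6 CPM. *Jun* was higher by 0.41 (SE 0.0574, edgeR adjusted p = 6.71e-05), *Atf3* by 0.35 (SE 0.103, edgeR adjusted p = 0.0132), and *Fos* by 0.33 (SE 0.0927, edgeR adjusted p = 0.00986). Of the 9 members, these 5 were higher without overlap of the groups, beside 26.2% of all tested genes. The call for *Atf3* was lost without shSrsf3 -PDGF-AA replicate 2 (edgeR adjusted p = 0.0781) and that for *Fos* without the 3 samples of lower mapping rate (0.0690). From those 9 samples, with replicate 3 as the only unstimulated scramble sample, *Maff* had 0.44 and *Jund* 0.14. That replicate was the lowest of its group for both genes, at 53.6 and 165 CPM. With all samples, *Junb*, *Maff*, *Fosl2*, and *Jund* had log2 fold changes of 0.20, 0.11, 0.09, and 0.03 and were not called.

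With ligand, 3 of the 9 members were higher in shSrsf3 cells and none was lower, beside 20.3% and 20.7% of all tested genes called higher and lower. *Fosb* was higher by 0.96 (SE 0.130, edgeR adjusted p = 4.90e-05), from 10.9 ± 0.573 to 21.2 ± 0.638 CPM (SD, n = 3). *Fosl1* was higher by 0.47 (SE 0.103, edgeR adjusted p = 0.00222), from 88.4 ± 7.82 to 123 ± 17.3 CPM, and *Jun* by 0.24 (SE 0.0573, edgeR adjusted p = 0.00444), from 137 ± 3.43 to 162 ± 6.58 CPM. These 3 genes were therefore higher in shSrsf3 cells both without and with ligand. *Fos* was below its scramble level in every stimulated shSrsf3 sample (9.48 ± 1.63 against 11.03 ± 0.220 CPM), but the log2 fold change of -0.21 was not called (SE 0.0977, edgeR adjusted p = 0.0977). The closest samples nearly tied, at 10.795 CPM in shSrsf3 replicate 1 and 10.835 CPM in scramble replicate 3. *Atf3* differed by -0.04 and *Fosl2* by -0.07, and *Junb*, *Jund*, and *Maff* by 0.19, 0.08, and 0.06, with no call. From the 9 samples of higher mapping rate, 6 members were called, with *Junb* (0.27), *Maff* (0.13), and *Jund* (0.10) added. The medians of the members, 0.33 without and 0.08 with ligand, stood beside -0.02 and -0.01 for all genes. Heat shock and handling stress genes, such as the chaperones *Hspb1* and *Dnajb1*, were also higher in shSrsf3 cells. In each condition 6 of 10 were called higher, beside 22.2% of all tested genes without and 20.3% with ligand. Of these 10 genes, *Hspe1* was called lower without ligand (-0.33, edgeR adjusted p = 0.0366). Their summed levels were 5742 to 5878 CPM in shSrsf3 and 4934 to 5400 CPM in scramble cells, more of which came from *Hspa8* (2745 to 3415 CPM) than from the other 9 together. Their part in the differences of the AP-1 genes was not tested.

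*Fosb* and *Fos* were set side by side as a ratio of their CPM per kilobase within each sample. The ratio of *Fosb* to *Fos* was 0.307, 0.389, and 0.220 in scramble -PDGF-AA replicates 1 to 3 and 0.550, 0.593, and 0.574 in scramble +PDGF-AA replicates 1 to 3. In shSrsf3 cells it was 0.393, 0.413, and 0.469 without and 1.13, 1.27, and 1.56 with ligand. The 4 groups did not overlap, although the 2 unstimulated groups came as close as 0.389 and 0.393. Per kilobase, only in stimulated shSrsf3 cells did *Fosb* exceed *Fos*. This depends on the lengths used, since in CPM *Fosb* (11.6) was also above *Fos* (11.3) in scramble +PDGF-AA replicate 2. The ratio combines 2 genes already described and was given no test.

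Over the 12 samples, *Fosb* and *Fosl1* varied together most closely of all pairs of members (Pearson's r = 0.957 of log2 CPM). *Fosl1* also had r = 0.917 with *Junb* and 0.912 with *Jun*. *Fos* had a negative r with every other member but *Jund* (0.0352), down to -0.577 with *Junb*. These values describe 12 samples in 4 groups that share libraries, and differences between the groups account for part of each. Of 12253 other genes, those most like *Fosb* included *Erf*, *Nr4a1*, *Nab2*, and *Arc* (r from 0.953 to 0.971), and the most like *Fosl1* were *Arc*, *Zfp36l2*, *Prkx*, *Nr4a1*, and *Plk3* (0.967 to 0.982). *Junb* was most like *Zc3h12a*, *Map3k14*, *Plekhh3*, *Zfp36l2*, and *Vasn* (0.947 to 0.962), *Fosl2* was like *Sdc4*, *Bcor*, *Vasn*, and *Vegfa* (0.955 to 0.966), *Jun* was like *Cbarp*, *Azin1*, *Ereg*, and *Plaur* (0.961 to 0.979), and *Atf3* most like *Rel*, *Taf1d*, *Suco*, *Egr2*, and *Vamp3* (0.913 to 0.953). *Fos* had no partner as close, with *Mier2*, *Trappc3*, *9130008F23Rik*, *Rdh13*, and *Acta1* between 0.807 and 0.845.

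Other parts of the AP-1 pathway were described from lists. Of all tested genes, 2.00% were called higher and 2.04% lower upon ligand in scramble cells, and 0.426% and 0.140% in shSrsf3 cells. In shSrsf3 against scramble cells, 22.2% were called higher and 23.7% lower without ligand, and 20.3% and 20.7% with ligand. Counts in the lists stand beside these shares. Of 23 genes for upstream kinases and factors of the *Fos* promoter, none was called upon ligand in scramble cells and 1, *Ets2*, in shSrsf3 cells (log2 fold change 0.24, edgeR adjusted p = 0.0440). Between the lines, 12 were higher and 5 lower without ligand and 10 higher and 4 lower with ligand. They included *Rps6ka2*, a kinase of the RSK family that acts below ERK (0.89 and 0.86), and *Ets2* (-1.08 and -0.96). Of 10 genes for turnover of AP-1 mRNA and protein, *Zfp36l2*, which encodes an AU-rich element binding protein, was higher upon ligand in both lines (0.78 in scramble and 0.69 in shSrsf3 cells). *Trib1* was called in scramble cells (0.31, edgeR adjusted p = 0.0136), and the interaction was not called for any of the 10. *Zfp36*, which encodes tristetraprolin, a factor that destabilizes AU-rich mRNA, was higher in shSrsf3 cells by 0.54 without and 0.51 with ligand, and *Zfp36l1* was lower by 0.67 and 0.46 on the log2 scale.

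Of 21 tested AP-1 target genes, 9 were higher upon ligand in scramble and 3 in shSrsf3 cells, and none was lower. *Ccl2*, a chemokine, had log2 fold changes of 0.85 and 0.91 in scramble and shSrsf3 cells, and the cytokine *Lif* had 0.70 and 0.69. *Hbegf*, an EGF receptor ligand (0.72), was among those called in scramble cells, and *Vegfa* (0.39) was the third called in shSrsf3 cells. Between the lines, 12 of the target genes were higher and 3 lower in shSrsf3 cells without ligand, and 9 higher and 2 lower with ligand. The shares of all tested genes were 22.2% higher and 23.7% lower without ligand, and 20.3% and 20.7% with it. Of 32 tested partners and relatives of the bZIP class, *Cebpb* (0.43) and *Nfil3* (0.35) were higher and *Dbp* (-0.51) was lower upon ligand in scramble cells, and *Cebpb* (0.46) was higher in shSrsf3 cells. Between the lines, 5 of the 32 were higher and 11 lower in shSrsf3 cells without ligand, and 5 higher and 9 lower with ligand. Among 30 other immediate early genes, 17 were higher upon ligand in scramble and 10 in shSrsf3 cells and none was lower. *Egr3* (2.41 and 1.48), *Nr4a1* (1.59 and 0.92), and *Egr1* (1.44 and 1.08) had larger values than any AP-1 member in scramble cells. Between the lines, 19 of these genes were higher and 5 lower in shSrsf3 cells without ligand, and 13 higher and 7 lower with ligand. None of the genes in these lists was called for the interaction.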

How the data were processed

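RNA-seq of 12 iMEPM samples was analyzed, grouped by their labels. The authors trimmed reads with BBDuk, quantified transcripts with Salmon 1.4.0 (GENCODE M26, GRCm39), and deposited expected counts, estimated read pairs per gene summed with tximport and not scaled to library size (its count scaling is not given in the sources used here). Here, expected counts were rounded, filtered (filterByExpr, minimum count 10), scaled with TMM (trimmed mean of M-values) factors, and tested with the quasi-likelihood test of edgeR 4.0.16 in 1 model of 4 group means, with Benjamini-Hochberg adjustment over 15037 genes. The code was tested on simulated data. DESeq2 1.42.0 and limma 3.58.1 were alternatives. All 9 members were named. From each list, at most the 4 largest called changes per comparison with a mean count of at least 50 were named, and for each member called upon ligand, the 5 genes of highest correlation, of which some are not reported here. The members and lists were chosen with earlier results of these data known. Sequences and lengths came from GENCODE M39 (GRCm39). Of its 31-base stretches, *Jund* shared 8.61% with other genes, and the others 0.0866% or less. *Junb*, *Fosl1*, *Jun*, and others overlap genes on the opposite strand. The libraries were stranded, but use of strand in counting is not given in the sources used here. The biological coefficient of variation was 0.0701. Protein sequences were not used here.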

Additional observations from a re-analysis of the deposited data

Results flagged for a closer look

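*Fos* had opposite differences between the lines in the 2 ligand conditions: every shSrsf3 sample was above every scramble sample without PDGF-AA (log2 fold change 0.33), and with PDGF-AA all 3 shSrsf3 samples lay below all 3 scramble samples (-0.21). With PDGF-AA the closest samples nearly tied, at 10.795 CPM in shSrsf3 replicate 1 and 10.835 CPM in scramble replicate 3. The lowest value, 7.66 CPM, was that of shSrsf3 replicate 3. The difference between these values is the interaction, -0.55, which had an unadjusted p of 0.00128 and an adjusted p of 0.495 in edgeR's test over 12 samples. The second of these differences was not called by itself (edgeR adjusted p = 0.0977). The first difference, the interaction, and the fall of *Fos* upon ligand in shSrsf3 cells are not separate results. All use the unstimulated shSrsf3 samples, whose mean of 14.3 CPM was the highest of the 4 groups.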

How the results depend on the processing

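With a 2-fold minimum, 0 members were called upon ligand in scramble cells, 1 in shSrsf3 cells, and 0 between the lines without or with ligand. Without a low-count filter, 5 members were called between the lines with ligand and 2, *Fos* and *Atf3*, for the interaction. With only the 2 groups compared in the model, 7 members were called upon ligand in shSrsf3 cells, and without the 3 samples of lower mapping rate 7 were called there and 6 between the lines with ligand. Those 3 samples are scramble samples and are not among those compared upon ligand in shSrsf3 cells, but the model shares its estimate of spread over the groups. The cause was not tested. Leaving out 1 sample at a time, 5 to 6 members were called upon ligand in scramble and 1 to 5 in shSrsf3 cells, 4 to 6 between the lines without and 3 to 4 with ligand, and 0 for the interaction.

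Signs turned only for members without a call in the main analysis. Upon ligand, *Fos* in scramble cells had 0.0345 at equal depth and -0.0843 to 0.00381 with 1 sample left out, *Jund* had 0.0468 in scramble cells without the samples of lower mapping rate, and in shSrsf3 cells -0.00435 with upper-quartile factors and -0.00953 to 0.0285 with 1 sample left out. Between the lines with 1 sample left out, *Jund* had -0.0115 to 0.0745 and *Maff* -0.0240 to 0.214 without ligand, and *Atf3* -0.0912 to 0.0393 with ligand. For the interaction, the values without the samples of lower mapping rate were -0.243 for *Fosb*, 0.0608 for *Junb*, and -0.0409 for *Jund*. *Junb* had 0.00163 with limma-voom and 9.00e-04 at equal depth. With 1 sample left out, *Fosb* had -0.0298 to 0.320, *Junb* -0.0986 to 0.0757, and *Maff* -0.149 to 0.0899. The choice of transcript length moved *Fosl1* and *Junb* (24.6 and 31.9 CPM per kilobase with the longest).

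Same-numbered replicates did not deviate together (correlations of -0.142 to 0.201), so that the numbers were not taken as pairs. With the replicate number as a block, 6, 4, 6, 4, and 0 members were called in the 5 comparisons in the order above, with *Junb* gained between the lines.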
